A study of Rattus norvegicus with 4 samples.

Results

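Ion channels and neurotransmitter receptors were read out in rat liver after long treatment with ciprofibrate, as the spots of the array whose single listed gene symbol begins with one of the family stems Kcn, Scn, Cacn, Clcn, Gabr, Gria, Grik, Grin, Grid, Grm, Chrn, Chrm, Htr, Drd, Adra or P2r. These were 51 of the 7688 spots, and 51 of the 5169 spots with 1 gene symbol. They belonged to 26 spotted cDNA clones of 25 genes, 25 of the clones printed as 2 spots and that of Kcnj16 as 1. The members were 6 potassium channel genes, 1 sodium channel, 4 calcium channel subunits, 1 chloride channel, 5 ionotropic glutamate receptor subunits, 1 GABA-A receptor subunit, 1 nicotinic acetylcholine receptor subunit, 2 alpha-adrenergic receptors and 4 P2X receptors. No metabotropic glutamate, muscarinic, serotonin, dopamine or P2Y receptor was among them.

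Ion channels are membrane proteins that let selected ions pass when voltage, a ligand, a second messenger or stretch opens them. Ligand-gated receptors such as those for glutamate, GABA, acetylcholine and ATP are channels themselves, whereas adrenergic receptors act through G proteins. Most of these genes are best known from nerve and muscle. In liver, alpha-1 adrenergic receptors of hepatocytes raise cytosolic calcium and drive glycogen breakdown, and ATP-sensitive, volume-regulated and ATP-gated channels are known from hepatocytes, bile duct cells or macrophages.

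Each of the 4 arrays set liver total RNA of 1 ciprofibrate-dosed rat (female, Fischer), given 50 mg per kg of body weight each day for 60 days, against a single pool of total liver RNA from 5 control rats. Ciprofibrate is a lipid-lowering fibrate that activates the nuclear receptor PPARα. The strain has no further genotype in the labels, the age of the rats is not given in the sources used here, and the pool leaves the spread between control rats out of every test. The arrays held 2 RNA samples per slide and gave a ratio for each spot, with no brightness, so neither the level of a gene in liver nor its rank against another gene can be read.

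The sign of the ratio is not stated. The labels name the treated liver first and the control liver second, and of 10 measured textbook genes induced by peroxisome proliferators 7 had a positive and 3 a negative mean. Of all clones tested, 50.3% to 50.6% were positive on each array, so a panel of 10 genes gives the direction only weak support. On that basis a positive log2 ratio is taken as probably meaning more RNA in treated liver. Of these genes Ech1 (0.67, log2), Me1 (0.43) and Acsl1 (0.41) were positive calls and Acot2 (-0.39) a negative one. With position on the slide taken out, Ech1 (0.31) and Me1 (0.39) stayed positive calls, Acsl1 (0.08) and Acot2 (-0.17) were not called, Cpt1a (-0.35) was a negative call and Cpt1b went from 0.05 to -0.27. Hsd17b4 was at -0.36, and at -0.42 with position taken out, and was not called either way. Fewer cells of a type and less RNA per cell cannot be told apart in whole liver. The arrays resembled each other over all 4704 clones tested, with a Pearson r of 0.68 to 0.76 among replicates 1, 3 and 4, and replicate 2 stood somewhat apart (r of 0.47 to 0.53 with the others). Of the hepatocyte markers, 10 clones of 9 genes were measured, among them both clones of Alb (-0.54 and -0.51). Their means were negative for 9 clones and positive for 1, with a median of -0.42, and of -0.41 with position taken out. There were 0 positive and 2 negative calls, Tf at -0.69 ± 0.20 and Fgb at -0.49 ± 0.31 (SD, n = 4). With position taken out Tf stayed called (-0.66) and Fgb did not (-0.38). A ratio cannot show whether a marker is present or absent. Of the neuronal markers, 5 clones were measured, with 0 positive and 2 negative calls, Nefm, a neurofilament subunit, at -0.47 ± 0.19 and Eno2, neuronal enolase, at -0.53 ± 0.32 (SD, n = 4). Both stayed called with position taken out, at -0.69 and -0.77. The other neuronal markers did not pass and had both signs, with Syp at -0.33 ± 0.21, Nefh at 0.18 ± 0.21 and Gap43 at 0.19 ± 0.26. They were at -0.28, 0.11 and -0.14 with position taken out, and were not called there either. The glial markers S100b and Pmp22 were at 0.33 ± 0.18 and 0.24 ± 0.47 and did not pass the test. Their means turned to -0.06 and -0.12 with position taken out. Of 8 clones of stellate cell and smooth muscle markers, from 7 genes, 4 were positive and 2 negative calls. Of these 4 and 2, 0 and 1 held without the position surface described below. The clones of Col1a2 were called in opposite directions, at -0.58 ± 0.38 and 0.39 ± 0.17, and neither call held. Kupffer cell and leukocyte markers gave 0 positive and 1 negative call of 2 clones, endothelial markers 1 and 0 of 2, and red cell markers 0 and 1 of 2, and no bile duct marker was listed. Of these calls, Cd74 (-0.62) and Hbb (-0.82) held with position taken out and the endothelial Kdr (0.14) did not. The part of these cell types in the values below was not tested.

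A ratio was missing on all 4 arrays for 11 of the 51 spots, or 21.6%, against 12.6% of all spots with 1 gene symbol. Both spots of Kcnc1, Kcnk3, Cacnb2, Chrna4 and P2rx5 were affected, so these 5 clones have no value. Kcnc1 encodes a fast delayed-rectifier potassium channel, Kcnk3 an acid-sensitive tandem-pore potassium channel, Cacnb2 an auxiliary calcium channel subunit, Chrna4 a nicotinic receptor subunit and P2rx5 an ATP-gated channel. The remaining missing spot belonged to Grin2d, whose second spot was measured on every array. The files do not say whether a spot was left out for a weak signal or for another reason. The other 21 clones, of 20 genes, had a ratio on all 4 arrays and entered the test.

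Of these 21 clones, 4 passed the threshold with a positive mean ratio and 1 with a negative one, an adjusted p under 0.05 by limma with Benjamini-Hochberg adjustment over all 4704 clones. The positive calls were the sodium channel Scn7a, the calcium channel subunit Cacna1a, the kainate receptor subunit Grik2 and the ATP receptor P2rx4, and the negative call was the AMPA receptor subunit Gria3. Over all clones tested 13.6% were positive and 15.0% negative calls, so the positive share of the channels and receptors, 19%, lay near the background, and the negative share, 4.76%, below it on the basis of 1 clone. In either direction 5 of 21 were called, against 28.6% of all clones. Ratios were positive on all 4 arrays for 10 of the 21 clones and negative on all 4 for 2, against 27.2% and 25.6% of all clones, and the other 9 had both signs. The count of positive calls was 3, 5, 0 and 2 without replicates 1, 2, 3 and 4, respectively. Over all clones it was then 310, 880, 100 and 153, in place of 638. Fits on fewer arrays have less power, yet the counts differed with the array left out and rose without replicate 2. Whether a single array carries the calls was not tested. The negative count was 2 without replicate 2. The median of the 21 means was 0.10 (log2), against -0.01 over all clones, and 14 of the 21 means were positive. Only Grik1, at 2.16-fold, reached a mean difference of 2-fold, and 11 means lay within 0.2 of 0. On replicates 1 to 4, respectively, 14, 15, 15 and 16 of the 21 clones had a positive ratio.

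**Figure D1:**
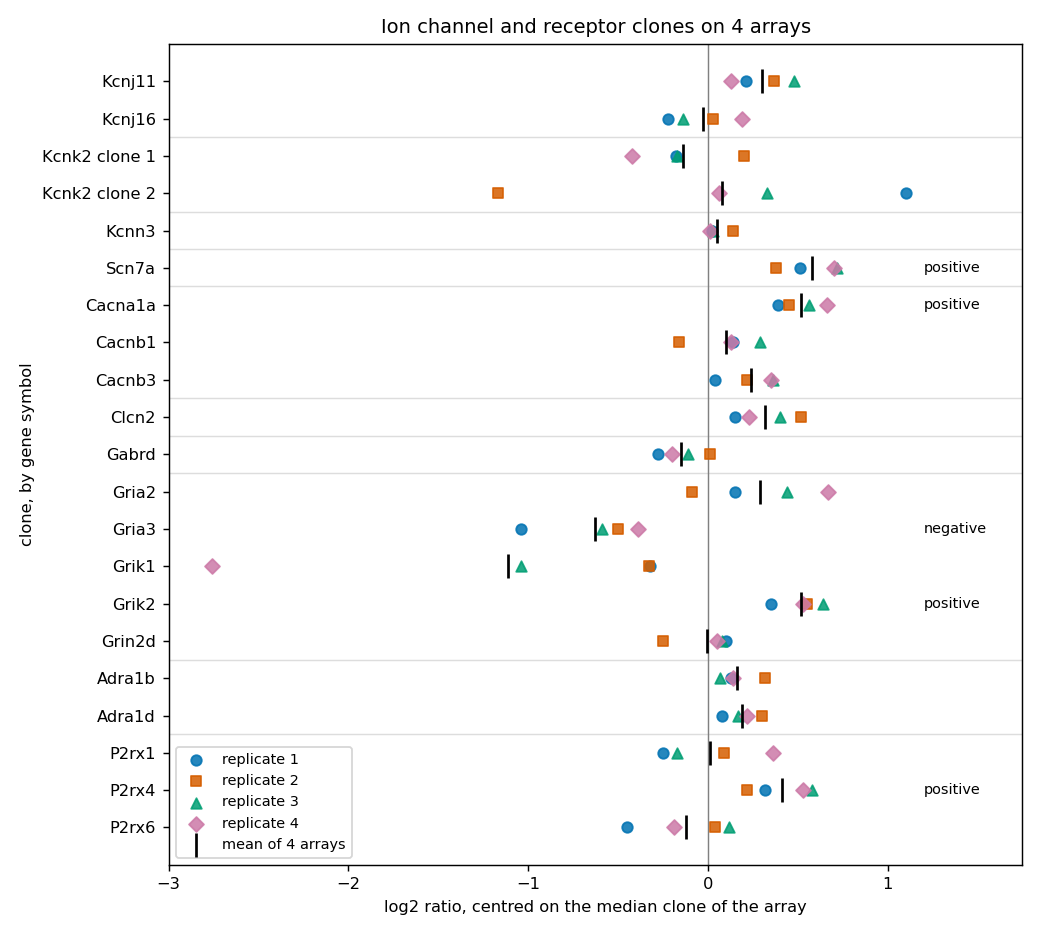
Log2 ratios of the 21 measured ion channel and receptor clones on each of the 4 arrays, with the mean as a black tick and the direction of the call at the right where the limma test passed. The 4 positive calls lie to the right of 0 on every array, Gria3 lies to the left on every array, and the clones with the widest scatter are Grik1 and the second clone of Kcnk2.

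All 5 calls lay on one side of the slide. In a layout inferred from the values, 11 of the 21 clones were printed in the left column of blocks and 10 in the right, and the 10 clones on the right gave no call. Over all clones, 25.4% of those on the left and 1.38% of those on the right were positive calls, and 8.17% and 22.1% were negative ones. The median of all means was 0.15 on the left and -0.16 on the right (log2). A surface fitted by loess to where the spots lie stood between 0.27 and 0.33 (log2, mean of the arrays) at the 4 positive calls. The surface was fitted to the values before centring, and each array was centred after the subtraction. Together these steps put every mean a further 0.04 below its centred value less the surface. With the surface subtracted in this way, 0 of the 21 clones were positive calls and 1, Gria3, was negative, against 2.85% and 11.3% of all clones. An unadjusted p under 0.05 was found for 9 of the 21 clones before the subtraction and 8 after it (42.9% and 38.1%), against 43.8% and 39.1% of all clones. With the median of each printing block subtracted in its place, 6 of the 21 clones were positive calls and 1, Gria3, was negative. Of all 4704 clones, 380 and 624 were. Scn7a and Cacna1a stayed called, Grik2 and P2rx4 did not, and Clcn2, Kcnj11, Adra1b and Adra1d were called as well. The part of slide position in the positive calls was not tested beyond these subtractions.

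**Figure D2:**
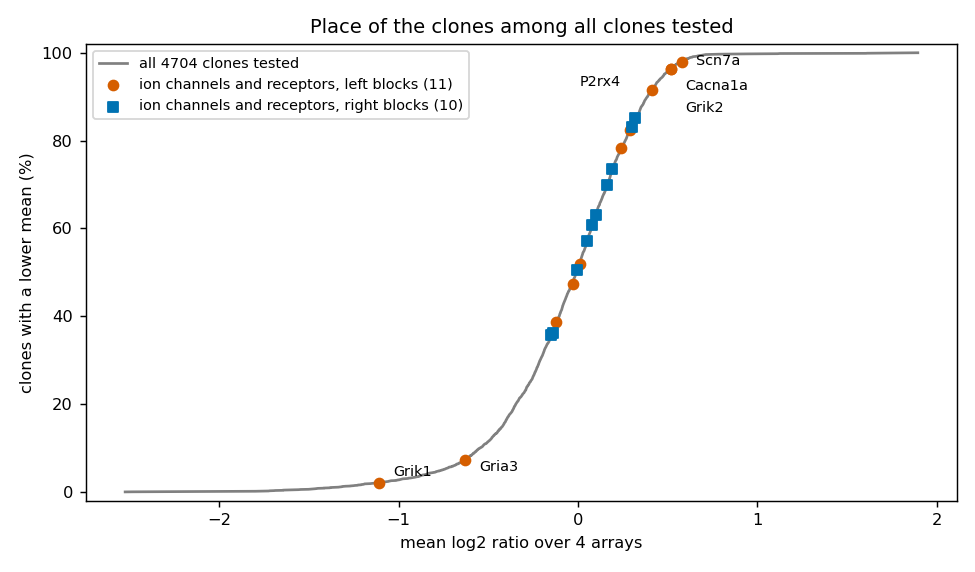
Mean log2 ratio of the measured clones (points) on the cumulative curve of all 4704 clones tested, with the share of clones that had a lower mean on the vertical axis. The 4 positive calls sit at the upper end and Grik1 and Gria3 at the lower end, and all 6 were printed in the left blocks (orange circles).

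Of the sodium and calcium channel clones, Scn7a and Cacna1a were positive calls. The calcium channel beta subunits Cacnb1 and Cacnb3 also had positive means but were not called. Scn7a encodes an atypical sodium channel known as a sensor of extracellular sodium in glia and other non-neuronal cells. Its log2 ratios were 0.51, 0.38, 0.72 and 0.70 on replicates 1 to 4. All 4 arrays were positive, with the lowest ratio on replicate 2. The mean of 0.58 ± 0.16 (SD, n = 4, limma adjusted p = 0.0102) is a 1.49-fold difference and exceeded 98% of all clone means. It was 0.20 ± 0.08 without the position surface (adjusted p = 0.0941) and 0.53 without replicate 3 (adjusted p = 0.0573). With block medians subtracted Scn7a stayed called at 0.36 (limma adjusted p = 0.0241). The adjusted p ran from 0.000503 to 0.0941 over its 16 alternative values.

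Cacna1a encodes the pore of the P/Q-type calcium channel, which triggers transmitter release at nerve terminals. Its ratios were 0.39, 0.45, 0.56 and 0.66 (log2). They spanned 0.26, and replicate 4 was the highest. The mean was 0.52 ± 0.12 (SD, n = 4, limma adjusted p = 0.0114), or 1.43-fold. Without the surface it was 0.17 ± 0.07, without replicate 3 it was 0.50 and without replicate 4 it was 0.47, none of which passed (adjusted p = 0.123, 0.0631 and 0.0523). The call held with block medians subtracted (0.30, limma adjusted p = 0.0349). Over all its alternatives the adjusted p lay between 0.00104 and 0.123.

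The beta subunits bring calcium channel pores to the membrane and tune their gating. Cacnb3 was positive on all 4 arrays, at 0.04, 0.22, 0.36 and 0.35 (log2), with a mean of 0.24 ± 0.15 that did not pass (SD, n = 4, limma adjusted p = 0.107). Cacnb3 passed with array weights (0.28, adjusted p = 0.0253) and with the repeated value kept (0.35, adjusted p = 0.0435). Without the surface it was at -0.13 (adjusted p = 0.349). Cacnb1 was at 0.14, -0.16, 0.29 and 0.13, below 0 on replicate 2 alone, with a mean of 0.10 ± 0.19. The difference between Cacna1a and the beta subunits was not tested. Clcn2, a chloride channel opened by hyperpolarization and cell swelling, was printed in the right column of blocks and was positive on every array, at 0.15, 0.52, 0.40 and 0.23. Its mean of 0.32 ± 0.17 lay just outside the threshold (limma adjusted p = 0.0527, from 0.0135 to 0.209 over the alternatives). The position surface at that spot was 0.01, and 0.26 ± 0.16 was left without it (adjusted p = 0.0807).

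None of the 5 measured potassium channel clones passed the test, though Kcnj11 did under some other settings. Kcnj11 encodes Kir6.2, the pore of the ATP-sensitive potassium channel that couples membrane voltage to the energy state of the cell. It was positive on all 4 arrays, at 0.21, 0.37, 0.48 and 0.13 (log2), with a mean of 0.30 ± 0.16 (SD, n = 4, limma adjusted p = 0.0626). Like Clcn2 it was printed on the right, and 0.21 ± 0.08 was left without the surface. It passed under 5 other settings, namely quantile normalization, one spread, array weights, block medians and the repeated value kept, and its adjusted p ran from 0.0121 to 0.287. Kcnj16, an inward rectifier subunit that pairs with other subunits of its family, was at -0.22, 0.03, -0.14 and 0.19, above and below 0 on 2 arrays each. Kcnn3, a small-conductance channel opened by calcium, had the tightest values of the set, 0.02, 0.14, 0.03 and 0.01, and a mean of 0.05 ± 0.06.

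The gene Kcnk2, which encodes the stretch- and lipid-sensitive tandem-pore channel TREK-1, was printed as 2 different clones, and these disagreed. The first clone had log2 ratios of -0.18, 0.20, -0.17 and -0.42 on replicates 1 to 4. The second had 1.10, -1.17, 0.33 and 0.06. On 4 of 4 arrays the clones were of opposite sign. The second clone ranged over 2.28 log2 units, and its SD of 0.95 exceeded that of 99.2% of all clones around a mean of 0.08, which replicate 4 alone came near. Its duplicate spots nevertheless agreed, at 1.10 and 1.11 on replicate 1 and at -1.15 and -1.20 on replicate 2. The spread of this clone was therefore between arrays and not between spots of an array. Averaged over both clones, Kcnk2 was at -0.03 (limma adjusted p = 0.897). The clone sequences were not used here, so whether both clones hold Kcnk2 was not tested.

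The ionotropic glutamate receptor subunits included both of the lowest means of the set and 1 of the 4 positive calls. These subunits form the fast excitatory channels of the central synapse, in the AMPA (Gria), kainate (Grik) and NMDA (Grin) classes. Gria3 had log2 ratios of -1.04, -0.50, -0.59 and -0.39. Every array was negative, and replicate 1 was the lowest. The mean of -0.63 ± 0.29 (SD, n = 4, limma adjusted p = 0.0136) corresponds to a ratio of 0.647, or 1.55-fold, and was the 344th lowest of 4704. Its spots stood apart by 0.19 on average, the second lower than the first on every array. Gria3 lay in the left column, where the surface was 0.34, and without the surface it was at -1.02 ± 0.26 (adjusted p = 0.00575). The call held without each single array (means of -0.49 to -0.71) and was lost with one spread imposed on all arrays (-0.73, adjusted p = 0.0502), the highest of its adjusted p-values, which began at 0.00153.

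Gria2, the AMPA receptor subunit that sets calcium permeability, did not share this ratio. It was at 0.15, -0.09, 0.44 and 0.67 (log2), highest on replicate 4 and below 0 on replicate 2, with a mean of 0.29 ± 0.33 that did not pass (SD, n = 4, limma adjusted p = 0.146). Without replicate 2 it was called at 0.42 (adjusted p = 0.0333), and without the surface it was at -0.01 ± 0.21. Gria2 and Gria3 were printed in the same block, and on each of the 4 arrays Gria3 was the lower of the pair.

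The kainate receptor subunits also lay far apart. Grik2 was at 0.35, 0.55, 0.64 and 0.53 (log2), positive on all arrays, with a mean of 0.52 ± 0.12 (SD, n = 4, limma adjusted p = 0.0114), or 1.43-fold. It was 0.20 ± 0.18 without the surface, 0.30 with block medians subtracted and 0.48 without replicate 3, and did not pass in any of these (adjusted p = 0.154, 0.0682 and 0.0681, out of a range from 0.00113 to 0.154). Grik1 was at -0.32, -0.33, -1.04 and -2.76. All 4 arrays were negative, but replicate 4 lay far below the others and rested on 1 spot, since the other spot had no ratio there. The mean of -1.11 ± 1.15 (limma adjusted p = 0.0558) did not pass, and its SD exceeded that of 99.7% of all clones. Without replicate 4 the mean was -0.56 (adjusted p = 0.0698), and without replicate 2 it was called at -1.37 (adjusted p = 0.0407). The NMDA receptor subunit Grin2d, measured on 1 spot, was at 0.10, -0.25, 0.08 and 0.05, with replicate 2 apart from the others.

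Gabrd, the delta subunit of GABA-A receptors outside the synapse, was at -0.28, 0.01, -0.11 and -0.20 (log2), with a mean of -0.15 ± 0.13 that did not pass (SD, n = 4, limma adjusted p = 0.290). It was the lowest mean among the 10 clones of the right column, where the median of all clones was -0.16.

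The alpha-1 adrenergic receptors were slightly positive and close to each other. Adra1b, the main alpha-1 receptor of rat hepatocytes, had ratios of 0.13, 0.32, 0.07 and 0.14 (log2), and Adra1d had 0.08, 0.30, 0.17 and 0.22. Both were positive on every array with their highest ratio on replicate 2. The means were 0.16 ± 0.11 and 0.19 ± 0.10 (SD, n = 4) and did not pass (limma adjusted p = 0.229 and 0.161). Both clones were printed on the right, and with the median of each printing block subtracted they were called at 0.34 and 0.32 (adjusted p = 0.0296 and 0.0444). With the smooth surface subtracted in its place they were at 0.26 ± 0.09 and 0.18 ± 0.12 and not called (adjusted p = 0.0599 and 0.135).

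P2X receptors are cation channels opened by extracellular ATP, and 3 of the 4 on the array were measured. P2rx4, known from macrophages and many epithelia, had ratios of 0.32, 0.22, 0.58 and 0.53 (log2). It was positive on every array, higher on replicates 3 and 4 than on 1 and 2. The mean of 0.41 ± 0.17 (SD, n = 4, limma adjusted p = 0.0265), or 1.33-fold, lost the threshold in 5 of 16 alternatives, against 2 or 3 for each of the other positive calls. It was at 0.07 ± 0.06 without the surface, at 0.20 with block medians subtracted, and at 0.45, 0.36 and 0.37 without replicates 1, 3 and 4 (adjusted p = 0.475, 0.0940, 0.0670, 0.138 and 0.106, against a lowest value of 0.00188). P2rx1, known from smooth muscle and platelets, was at -0.25, 0.09, -0.17 and 0.36, on both sides of 0, and its mean was 0.01 ± 0.28. P2rx6, a subunit that forms channels poorly on its own, was at -0.45, 0.04, 0.12 and -0.19 with a mean of -0.12 ± 0.25. Without the surface P2rx6 was at -0.45 ± 0.27 (adjusted p = 0.0513).

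**Figure D3:**
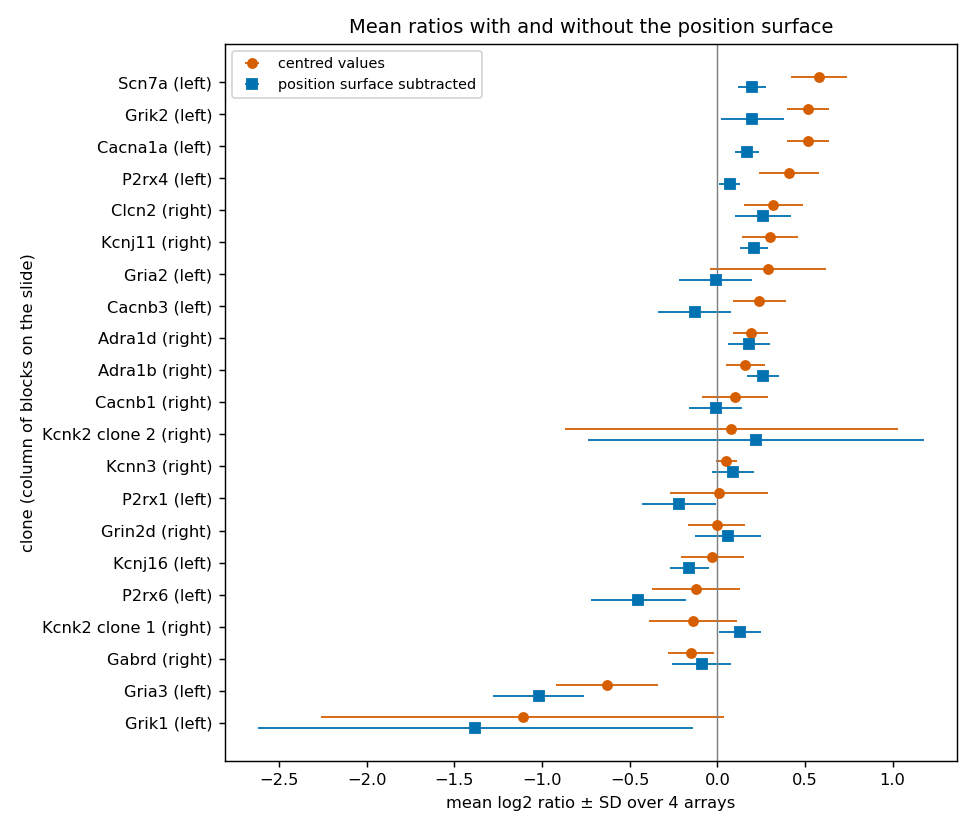
Mean log2 ratio ± SD over the 4 arrays for each clone, with the arrays centred only (orange circles) and with the fitted position surface also subtracted (blue squares). The 4 positive calls move toward 0, for example from 0.58 to 0.20 for Scn7a and from 0.41 to 0.07 for P2rx4, Cacnb1, Cacnb3, Gria2 and P2rx1 move from positive to negative means, and Gria3 moves from -0.63 to -1.02.

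Duplicate spots show how far a ratio repeats within an array. For the 18 clones with both spots measured on all arrays, the spots differed by a median of 0.08 (log2, mean absolute difference over arrays), against 0.10 over 1591 such clones of the whole array. The median SD between arrays of the 21 clones was 0.17, against 0.21 over all clones. The largest differences between spots were those of P2rx6, at 0.26, the first Kcnk2 clone, at 0.25, and Cacnb3, at 0.24. The 4 positive calls repeated closely, from 0.07 for Cacna1a, Grik2 and P2rx4 to 0.14 for Scn7a. Whether duplicate spots lie near each other in the inferred layout was not checked. If they do, agreement between them does not separate a clone from its place on the slide.

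**Figure D4:**
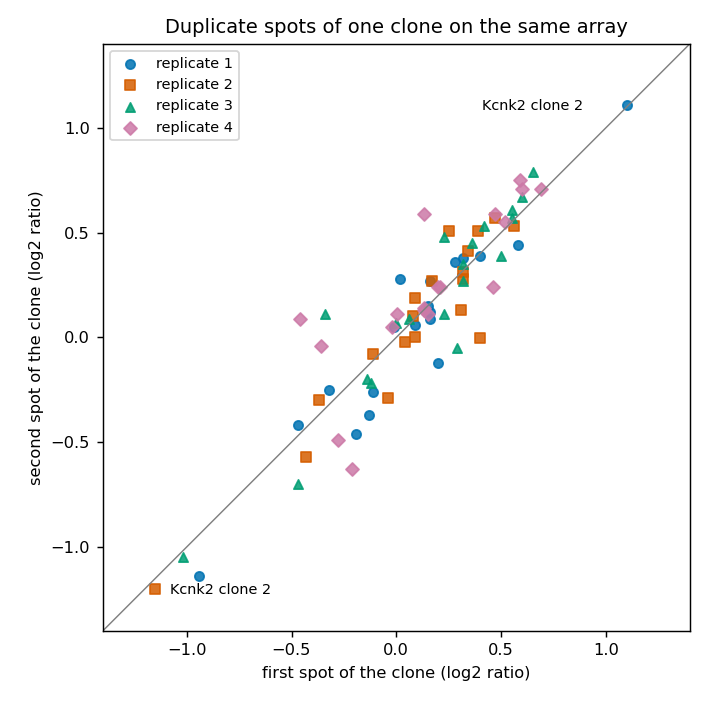
Log2 ratio of the first spot (horizontal) against the second spot (vertical) of each clone on the same array, one point per clone and array, with the line of equality. Points lie near the line, and the second Kcnk2 clone sits on it at opposite ends on replicate 1 (1.10 and 1.11) and replicate 2 (-1.15 and -1.20).

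The order of the 21 clones was shared by most pairs of arrays. As a description over clones that share slides and the control pool, Spearman's rho was between 0.67 and 0.86 among replicates 1, 3 and 4 and between 0.45 and 0.60 for the pairs with replicate 2. Pearson's r between replicates 1 and 2 was near 0 (-0.0046) and was 0.69 without Grik1 and the second Kcnk2 clone.

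Other genes of ion transport and transmission, from 6 lists outside these families, gave 10 positive and 6 negative calls among 55 clones, or 18.2% and 10.9%, near the background of 13.6% and 15.0%. Without the position surface 0 of the 10 positive and 2 of the 6 negative calls held, and 3 other clones were called, Gng10 at 0.35, Asic2 at -0.78 and Itpr3 at -0.35 (limma adjusted p = 0.0384, 0.0124 and 0.0401). Of the 10 positive and 6 negative calls, 7 held with block medians subtracted and 9 did not. Those that held were Itpr1 (0.37), Clic5 (0.37), Atp1b1 (0.35), Atp2b1 (0.41), Slc17a1 (0.46), Glul (0.47) and Slc17a5 (-0.54). Of 20 clones of other channels 3 were positive and 1 negative. Itpr1, a calcium release channel of the endoplasmic reticulum, was at 0.58 ± 0.20 (SD, n = 4), the gap junction protein Gja1 at 0.37 ± 0.16 and Clic5 at 0.34 ± 0.17, while the water channel Aqp5 was at -0.44 ± 0.14 and stayed called at -0.35 ± 0.12 without the surface but not with block medians subtracted (-0.26, limma adjusted p = 0.0664).

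Of 6 ion pump clones 2 were positive and 1 negative. Atp1b1, a beta subunit of the sodium pump, was at 0.57 ± 0.11 (SD, n = 4) and the plasma membrane calcium pump Atp2b1 at 0.55 ± 0.21. Another beta subunit of the sodium pump, Atp1b3, was at -0.38 ± 0.05, printed on the right, and stayed called at -0.36 ± 0.09 without the surface. It was not called with block medians subtracted (-0.26, limma adjusted p = 0.0603), with the repeated value kept (-0.28, adjusted p = 0.0510) or without replicate 1, 3 or 4 (-0.36, -0.40 and -0.38, adjusted p = 0.0772, 0.0997 and 0.0894). Of 13 clones of transmitter metabolism and uptake 3 were positive and 2 negative. The positive ones were the phosphate transporter Slc17a1 at 0.60 ± 0.18, the glutamate transporter Slc1a1 at 0.50 ± 0.19 and glutamine synthetase, Glul, at 0.34 ± 0.15. Slc17a5, a lysosomal sialic acid exporter, was at -0.58 ± 0.39 and the glutamate transporter Slc1a2 at -0.42 ± 0.30. None of these 5 passed without the surface, where Slc17a1 was at 0.34, Slc1a1 at 0.18, Glul at 0.28, Slc17a5 at -0.47 and Slc1a2 at -0.33; the last 3 were printed on the right.

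The single measured receptor outside the families, the adenosine receptor Adora2a, was a positive call at 0.46 ± 0.25 (SD, n = 4) and was at 0.08 ± 0.07 without the surface. Among 5 clones of receptor scaffolds the anchor Dlg1 was negative at -0.62 ± 0.54, with replicate 2 at -1.36. Among 10 G protein subunits Gnai3 was positive at 0.45 ± 0.15 and Gnb5 negative at -0.46 ± 0.23. Their values without the surface were -0.58, 0.15 and -0.21, and none was then called.

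Promoter letters were read for 19 of the 25 genes, those matched in a table of RefSeq promoters (GRCr8), over the 250 bases before the listed start, on both strands. Only exact matches were searched. The hexamer AGGTCA, the building block of nuclear receptor sites, was in none of the 19 and in 14.1% of 33469 promoters. Its direct repeat with a spacer of 1 base, the arrangement known for PPAR response elements, was in none of the 19 and in 0.0508% of all. An exact repeat is so rare that its absence from 19 genes carries no information. Whether these genes have PPAR sites was not tested. The GC box GGGCGG was in 8 of the 19, or 42.1%, against 30.5% of all promoters. These shares differ in unit: a gene counted if any of its windows held the box, with 21 windows for 19 genes, whereas all promoters were counted singly. The member windows had a median of 62% G and C, against 51.2% for all promoters. The part of base composition in the GC box share was not tested. The windows of Grik2, a positive call, and of Gabrd, not called, are shown because they lie wholly outside the annotated gene and differ in base composition, with 49.6% and 74% G and C. Capitals mark GGGCGG or its reverse complement. Grik2 holds none and Gabrd holds 4 copies, 3 of them overlapping. Grik2 is at chr20:54415284-54415533 and Gabrd at chr5:171252710-171252959, both in GRCr8 and on the minus strand, and both are written 5′ to 3′ up to the last base before the start.
Grik2: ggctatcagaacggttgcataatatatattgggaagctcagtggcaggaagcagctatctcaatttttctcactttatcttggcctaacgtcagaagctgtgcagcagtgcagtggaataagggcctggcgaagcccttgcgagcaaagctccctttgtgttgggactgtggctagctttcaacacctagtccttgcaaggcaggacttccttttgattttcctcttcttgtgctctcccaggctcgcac
Gabrd: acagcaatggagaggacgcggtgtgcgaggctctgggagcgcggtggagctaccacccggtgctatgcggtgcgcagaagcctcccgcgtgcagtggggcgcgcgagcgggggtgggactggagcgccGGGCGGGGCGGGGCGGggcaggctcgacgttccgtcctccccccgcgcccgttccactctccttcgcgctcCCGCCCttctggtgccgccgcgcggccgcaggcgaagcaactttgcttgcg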

How the data were processed

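Per the labels, total RNA from 4 treated livers was hybridised against 1 control pool on arrays with 2 channels. For every spot and array the authors deposited a single number, which its values show to be log10 of a ratio: as a linear ratio in thousandths it was whole within 0.02 for 100.0% of spots. How the authors scanned, background-corrected and normalized is not given in the sources used here. The number of arrays limits the precision. The most repeated value of each array (1171 to 1189 spots) was read as a missing ratio. Values were converted to log2, spots of a clone averaged, and arrays centred on their median (5674 clones). The 4704 clones with no missing array entered limma 3.58.1 (lmFit and eBayes, under R 4.3.3), which tested the mean ratio against 0, with Benjamini-Hochberg adjustment over all clones, two-sided, and a threshold of 0.05. With 4 arrays, 0.125 is the smallest p an exact sign-flip test allows. The test was tried on simulated data. Nothing says that each array holds a different rat beyond the labels' count of 4 treated rats; replicate numbers follow accession order. Were arrays to share a rat, the p-values would cover only technical spread.

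Symbols come from GEO's platform annotation, which is old (5252 of 7688 spots are listed, 83 with several symbols and used for no gene); all 25 member symbols match the current GRCr8 table. Members, lists and tests were chosen with earlier results of these data known. The naming rule took called members, the highest and lowest clone of each family, genes with several clones and up to 4 called clones per other list and sign; the remaining members are given for completeness, and the panel genes, S100b, Pmp22, Syp, Nefh, Gap43, Alb, Gng10, Asic2 and Itpr3 were named with their values seen. The slide layout (8 blocks of 31 by 31 spots, 2 columns and 4 rows) is an inference; the surface was a robust loess of span 0.05, degree 1 and 4 iterations. Other alternatives were uncentred arrays, quantile normalization, arrays scaled to one spread, block medians, at least 3 arrays, robust prior, array weights, spots or genes as rows, the repeated value kept, and each array left out.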

Additional observations from a re-analysis of the deposited data

Results flagged for a closer look

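Of 37 named clones, 3 had 1 array far from the other 3 by Dixon's ratio of gap to range, which chance alone gives for about 1 in 20 groups. The NMDA receptor subunit Grin2d was lowest on replicate 2, at -0.25 (log2), with the other arrays between 0.05 and 0.10. The potassium channel Kcnn3 was highest on replicate 2, at 0.14, with the others between 0.01 and 0.03. The water channel Aqp5 was lowest on replicate 4, at -0.65, with the others between -0.39 and -0.36. Neither Grin2d nor Kcnn3 passed the test with or without replicate 2, and Aqp5 lost its call without replicate 1, 3 or 4 (-0.47, -0.47 and -0.37, limma adjusted p = 0.0542, 0.0772 and 0.0879).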

How the results depend on the processing

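Depth is unknown and the table holds no signal over background, so dim and bright spots cannot be separated. The single control pool is common to all arrays, and fits with an array left out have less power. No paired analysis was possible because there is 1 group.

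Positive calls among the channels and receptors went from 4 to 0 with the position surface subtracted. They were 6 with block medians subtracted, with quantile normalization or with one spread, and 7 with the repeated value kept. With array weights or with every spot as a row they were 8, and they lay between 0 and 5 with each array left out. Negative calls went from 1 to 0 with one spread for all arrays and to 2 with array weights or with spots as rows, and lay between 1 and 2 with an array left out. Over all clones, positive calls were 1148 with array weights, 134 without the surface, 380 with block medians subtracted and 993 with the repeated value kept, and 100 to 880 with an array left out, against 638. They were 810 with quantile normalization and 777 with one spread. Negative calls were 1211 with array weights, 462 with the repeated value kept and 322 to 904 with an array left out, against 706. Without the surface 134 positive and 531 negative clones were called. The kept value is the same on all spots of an array by construction; the cause of the other changes was not tested.

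The median of the member means, 0.10 (log2), moved by more than its SD of 0.03 over arrays: it was 0.13 with quantile normalization, with genes as rows or with the repeated value kept, 0.14 with spots as rows, 0.15 with one spread, 0.16 with array weights, 0.17 with block medians, 0.07 without the surface, and 0.07 to 0.16 with an array left out.

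The called clones kept their sign in all 16 alternative values each. Signs turned only for clones that were not called either way. With the surface subtracted these were Cacnb1 (-0.01), Cacnb3 (-0.13), Gria2 (-0.01), Grin2d (0.06), the first Kcnk2 clone (0.13) and P2rx1 (-0.22). Grin2d was also at 0.03 with quantile normalization or one spread, 0.06 with array weights and 0.17 with block medians. P2rx1 was at -0.02 without centring, -0.06 with quantile normalization, -0.05 with one spread, -0.07 with array weights, -0.03 for its first spot and -0.11 with block medians. Kcnj16 was at 0.07 with the repeated value kept, the second Kcnk2 clone at -0.03 with genes as rows and the first spot of Kcnn3 at -0.01. With each array left out, Grin2d ranged from -0.04 to 0.08, Kcnj16 from -0.11 to 0.03 (0.0020 without replicate 3), the second Kcnk2 clone from -0.26 to 0.50 (-0.0034 without replicate 3) and P2rx1 from -0.11 to 0.09 (-0.02 without replicate 2).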
